A study of Octopus bimaculoides with 95 samples.

Results

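GNRH is the table entry that carries the name of the gonadotropin-releasing hormone family of neuropeptides in an RNA sequencing survey of tissues of the California octopus, Octopus bimaculoides. It was taken by its name from both expression tables, and it is 1 of 17545 genes in the larger one. Peptides of this family act through receptors coupled to G proteins. In vertebrates the hormone is released in the hypothalamus and makes the pituitary secrete gonadotropins. Molluscs have no pituitary, and in Octopus vulgaris a peptide of the family has been described in brain lobes, in nerves that reach the optic gland, and in nerves of the heart and the reproductive tract. The optic gland is the endocrine organ that governs sexual maturation in octopuses. The tables give GNRH no product name beyond this and no genome position, and its sequence is not printed here.

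The survey holds 95 libraries. The first table, made from a sequencing plate, has 51 libraries of 21 neural tissues, 15 of them with 3 libraries, and 34 libraries of 25 non-neural tissues, most with 1 library. The second table has 5 libraries of whole neural tissue and 5 of single neurons taken from dissociated nervous tissue, each scaled apart from the plate. The labels give the tissue and no age, treatment or strain, give a sex only through the name of an organ (ova, male gonad, hectocotylus), and do not name animals. P-values within the nervous system therefore rest on the spread between libraries of a tissue, which may be technical, and those for neural against non-neural tissues on the spread between tissues. Values are TPM, reads scaled by transcript length and by library total, after the synthetic spike-in RNAs were left out. In bulk tissue, fewer GNRH cells and less GNRH RNA per cell cannot be told apart.

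Depth set what a listed 0 can mean. Read numbers recovered from the steps between TPM values came to between 32116 and 12718986 per plate library, and their median was 806835 for neural tissue and 1697510 for non-neural tissue. The median share of TPM taken by spike-ins was 51.6% for neural tissue and 25.05% for non-neural tissue. A count of 0 was taken to allow up to 3 reads, and 3 GNRH reads were worth 0.677 to 200.6 TPM depending on the library (median 4.65). The two-sided 95% exact Poisson intervals given for counts above 0 would set that bound at 3.69 reads, so limits and intervals below are on different bounds. The tissue labels were checked by correlation, and 11 plate libraries resembled the opposite class more than their own: stellate ganglion 1 and right mediolateral vertical lobe 1 among the neural ones, and 9 non-neural ones. In 5 of the 11 (those 2, chromatophores 1, optic gland and retina 3), left out in an alternative, GNRH was at 0.574 TPM or less.

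GNRH was detected in 35 of 85 plate libraries, 25 of 51 neural and 10 of 34 non-neural. Of its 2685 reads on the plate, 2671 (99.5%) came from neural libraries and 14 from non-neural ones. The posterior subesophageal library alone held 41.8% of the reads, the 3 dorsal basal libraries 33.4% and the anterior subesophageal library 11.2%. Across 46 tissue means, GNRH's index of tissue specificity (tau on the log2 scale, where 1 is a gene found in 1 tissue) was 0.851, above that of 84.1% of 11502 genes.

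**Figure D1:**
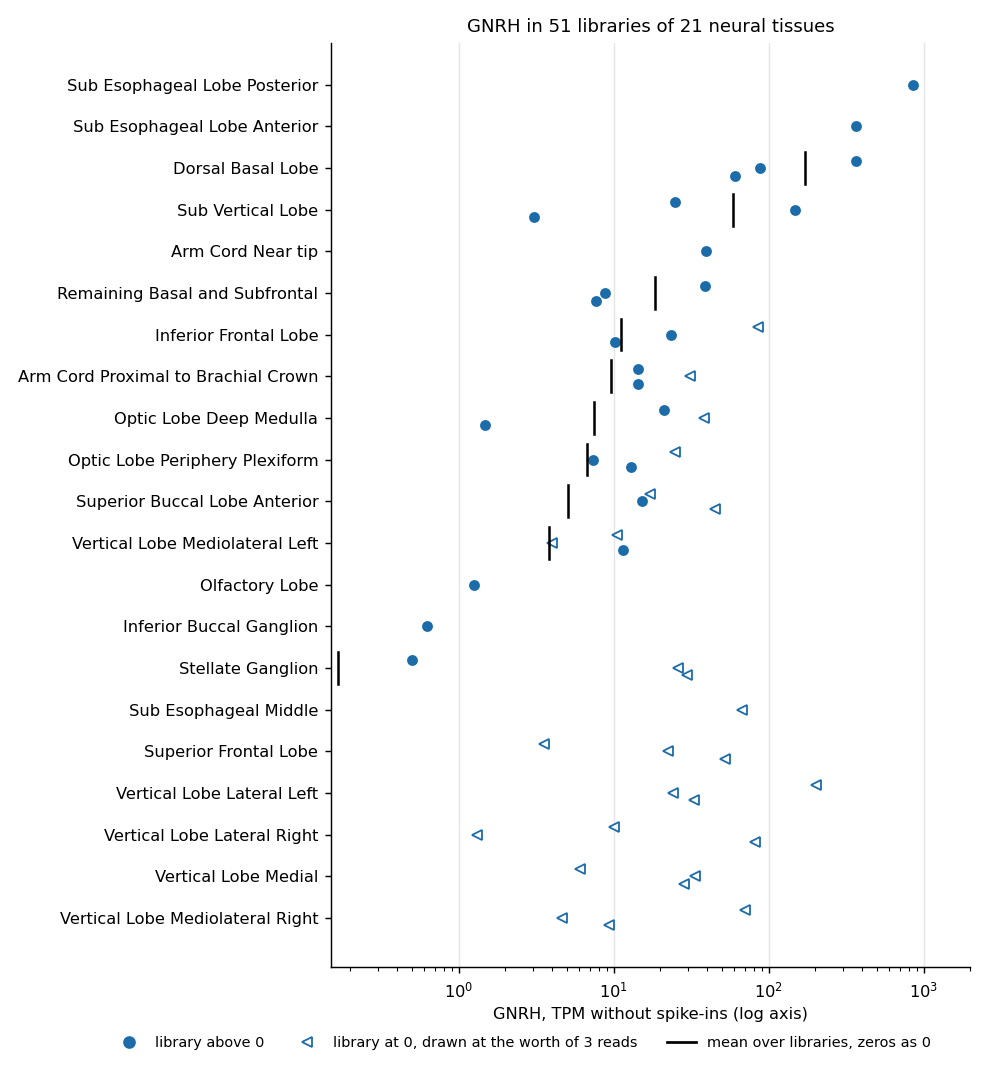
GNRH level in TPM without spike-ins on a log axis, 1 symbol per library, for the 21 neural tissues ordered by mean. Filled circles are libraries above 0, open triangles are libraries at 0 drawn at the TPM that 3 reads would be worth, and black bars are means with zeros counted as 0. The posterior subesophageal library stands highest at 855 TPM, the 3 dorsal basal libraries lie at 60.9 TPM or more, and 14 of 15 vertical lobe libraries are at 0.

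The subesophageal lobes hold motor centres for the arms, the funnel and mantle, and the viscera. They gave the highest and one of the least certain values of the plate. The posterior part had 855 TPM from 1121 reads (95% exact Poisson interval 806 to 907, counting error only), which placed GNRH 142nd among 11652 genes above 0 in that library. The anterior part had 366 TPM from 300 reads (interval 326 to 410) and GNRH was 342nd of 11356 genes. The middle part had 0 reads, in a library of 82926 recovered reads of which 93.3% of the TPM was spike-in, and this count allows up to 67.6 TPM. Each part has 1 library, so the differences among the 3 have no replicate check.

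The dorsal basal lobe, a higher motor centre of the supraesophageal brain, was the highest tissue with replicates on the plate. Its 3 libraries had 366, 87.9 and 60.9 TPM from 758, 112 and 26 reads, and averaged 172 ± 169 TPM (SD, n = 3). The 3 values were all above those of 45 of the other 48 neural libraries. Some of the 45 are at 0 with limits above 60.9 TPM, such as left lateral vertical lobe 1 (200.6 TPM) and inferior frontal 1 (85.8 TPM). Those libraries cannot be placed below the dorsal basal lobe. Without the first library the mean was 74.4 TPM.

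The subvertical lobe, which receives the output of the vertical lobe, followed with 24.9, 147 and 3.06 TPM, from 23, 131 and 1 reads, and a mean of 58.4 ± 77.7 TPM (SD, n = 3). The second library lay above the other 2 beyond counting error, while the intervals of the first (15.8 to 37.3 TPM) and the third (0.0775 to 17.1 TPM) overlap. The remaining basal and subfrontal lobes, pooled in the labels as 1 tissue, had 38.7, 8.80 and 7.63 TPM, where the lower pair rests on 1 read each, and a mean of 18.4 ± 17.6 TPM (SD, n = 3). The inferior frontal lobe, which takes part in touch learning, had 0, 23.4 and 10.1 TPM (11.2 ± 11.8, SD, n = 3). Its library at 0 has 84188 recovered reads, and there 3 GNRH reads would be worth 85.8 TPM. The superior frontal lobe, which feeds visual signals to the vertical lobe, had 0 in all 3 libraries, with limits of 3.53, 22.4 and 52.3 TPM. The anterior superior buccal lobe had 15.2 TPM from 2 reads in its second library and 0 in the other 2.

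The vertical lobe, the part of the octopus brain best known for learning and memory, had little or no GNRH detected in its 5 dissected subdivisions. GNRH was above 0 in 1 of 15 libraries, the third of the left mediolateral subdivision, at 11.5 TPM from 22 reads. The other 14 libraries were at 0, with limits from 1.30 to 200.6 TPM, and 9 of these limits lay over 10 TPM. In the left lateral subdivision the lowest limit was 24.2 TPM, so a low level there is not shown. In 11 of the 14 the limit was below 60.9 TPM, the lowest value of the dorsal basal lobe. The deepest of them, right lateral 2, has 5444388 recovered reads and a limit of 1.30 TPM.

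The optic lobes, which process visual input, gave at most 10 GNRH reads in a library. The deep medulla had 20.97, 0 and 1.47 TPM, from 2, 0 and 1 reads. The interval of its first library is 2.54 to 75.8 TPM. The plexiform periphery had 0, 7.32 and 12.9 TPM, from 0, 8 and 10 reads. The means were 7.48 ± 11.7 and 6.73 ± 6.45 TPM (SD, n = 3 each), and both libraries at 0 have limits over 24 TPM. The olfactory lobe had 1.26 TPM and the inferior buccal ganglion 0.626 TPM, 1 read each.

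In the peripheral nervous system GNRH was found along the arm. The arm nerve cord near the tip had 39.3 TPM from 27 reads (interval 25.9 to 57.2), and the cord close to the brachial crown 14.4, 0 and 14.4 TPM, from 10, 0 and 32 reads (9.60 ± 8.32, SD, n = 3). The cord library at 0 allows up to 31.1 TPM, above both of the others. The stellate ganglion, which drives the mantle muscle, had 0.501 TPM from 1 read in its first library, which has 5194646 recovered reads, and 0 in 2 shallow ones with limits of 25.9 and 29.9 TPM. That first library resembled non-neural tissue, and both limits lie above the proximal arm cord values. The plate therefore does not show a low level in the stellate ganglion.

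On the plate, the tissues with at least 2 libraries and any GNRH were ordered by mean. The order ran from the dorsal basal lobe through the subvertical, remaining basal and inferior frontal lobes, the proximal arm cord and the deep medulla. The plexiform periphery, the superior buccal lobe and the left mediolateral vertical lobe came next. After them came the retina, the branchial heart auricle, the posterior salivary gland and the stellate ganglion. The superior frontal lobe, the other 4 vertical lobe subdivisions, the branchial heart ventricle, the chromatophores and the anterior salivary gland were at 0 in all their libraries. The ranges of each neighbouring pair in the order overlapped, so no single step exceeded the spread between libraries.

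**Figure D2:**
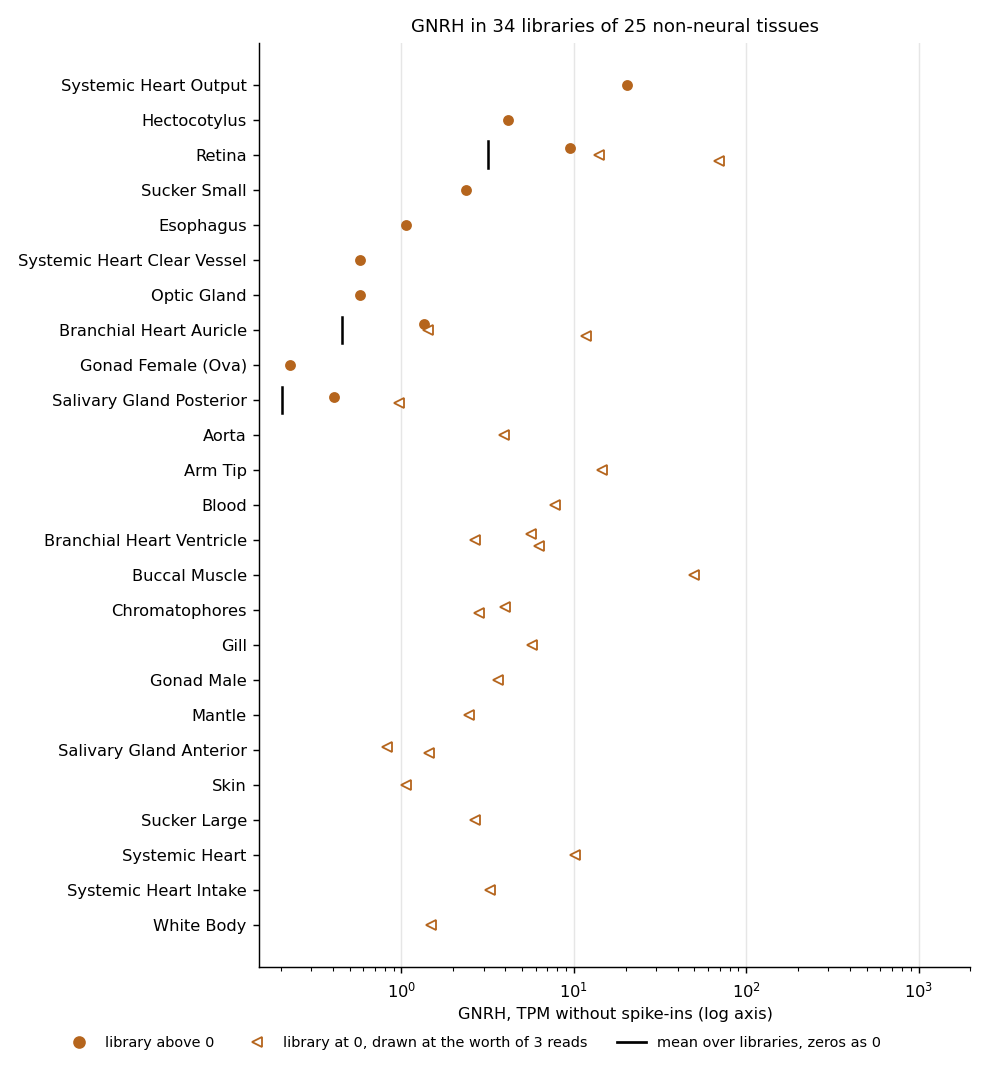
GNRH level in TPM without spike-ins on a log axis, 1 symbol per library, for the 25 non-neural tissues ordered by mean, with symbols as for the neural tissues. In the 10 libraries above 0, GNRH rests on 1 to 4 reads, and the output vessel of the systemic heart, at 20.4 TPM, on 1.

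Outside the nervous system, GNRH was at the edge of detection. Of the 10 libraries above 0, 8 held 1 read, retina 1 held 2 and the hectocotylus, the arm that males use to transfer sperm, held 4, at 4.14 TPM (interval 1.13 to 10.6). The highest non-neural TPM, 20.4 in the output vessel of the systemic heart, came from 1 read in a library of 78116 recovered reads and has an interval of 0.518 to 114 TPM. Retina 1 had 9.54 TPM, and retina 2 and 3 had 0. The small sucker had 2.38 TPM, the esophagus 1.07 TPM and the clear vessel of the systemic heart 0.577 TPM. The auricle of the branchial heart had 1.35, 0 and 0 TPM, and the posterior salivary gland 0.406 and 0 TPM.

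Of the 9 non-neural libraries that resembled neural tissue, 4 were above 0 (optic gland, hectocotylus, retina 1 and the output vessel), with a mean of 3.85 TPM and 8 reads in all, or 1.78 TPM without the output vessel and its 1 read. Of the other 25, 6 were above 0, with a mean of 0.240 TPM and 6 reads, or 0.151 TPM without the small sucker. The part of that resemblance in the non-neural GNRH reads was not tested.

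Among non-neural organs in which a peptide of this family has been studied in Octopus vulgaris, no library showed more than 1 read. The optic gland library had 0.574 TPM from 1 read among 4195432 recovered reads (interval 0.0145 to 3.20), and it is 1 of the 9 non-neural libraries that resembled neural tissue. The ova, the deepest library of the plate, had 0.226 TPM from 1 read, and the male gonad had 0, with a limit of 3.64 TPM. Over the 12 libraries of heart, vessels and blood GNRH had 3 reads in all.

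The other 15 non-neural tissues were at 0 in every library. Of the 24 non-neural libraries at 0, 18 have a limit under 10 TPM, from 0.820 TPM in anterior salivary gland 1 upward. Of the 26 neural libraries at 0, 6 do.

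Neural tissues were set against non-neural tissues over tissue means, so that each labelled tissue counted once. Subdivisions of an organ, such as the 5 of the vertical lobe, entered as separate tissues. GNRH was higher in neural tissues: the tissue means averaged 74.0 ± 198 TPM in 21 neural tissues and 1.33 ± 4.13 TPM in 25 non-neural tissues (SD), with medians of 5.05 and 0 TPM. The averages were 35.0 TPM without the posterior subesophageal part and 0.533 TPM without the output vessel. The mean was above 5 TPM in 11 neural tissues and 1 non-neural tissue, the output vessel with its 1 read. The difference was 2.35 ± 0.61 (SE) on the log2(TPM + 1) scale, which understates changes of low genes, with an adjusted p of 0.00190 in limma. A two-sided permutation test over the same 46 means with 100000 resamples gave p = 0.00035. By the rule used for every difference (adjusted p under 0.05 and at least 1 on the log2 scale), 25.1% of the 14740 genes tested passed in either direction and 21.4% were higher in neural tissues, so GNRH shares this direction with many genes. That background depends on scaling: 85.3% of the genes that passed were higher in neural tissues, but 54.9% under median ratio scaling, where the median over all genes was -0.07, against 0.29 as reported. GNRH kept a difference of 2.12 there (adjusted p = 0.00696 in limma). Within the largest label style, names that begin with a 4-digit number, the difference was 3.56 ± 0.79 (SE; adjusted p = 0.00169 in limma). With the subdivisions of an organ merged, which left 32 tissues, it was 2.72 ± 0.63 (SE; adjusted p = 0.00146 in limma).

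**Figure D3:**
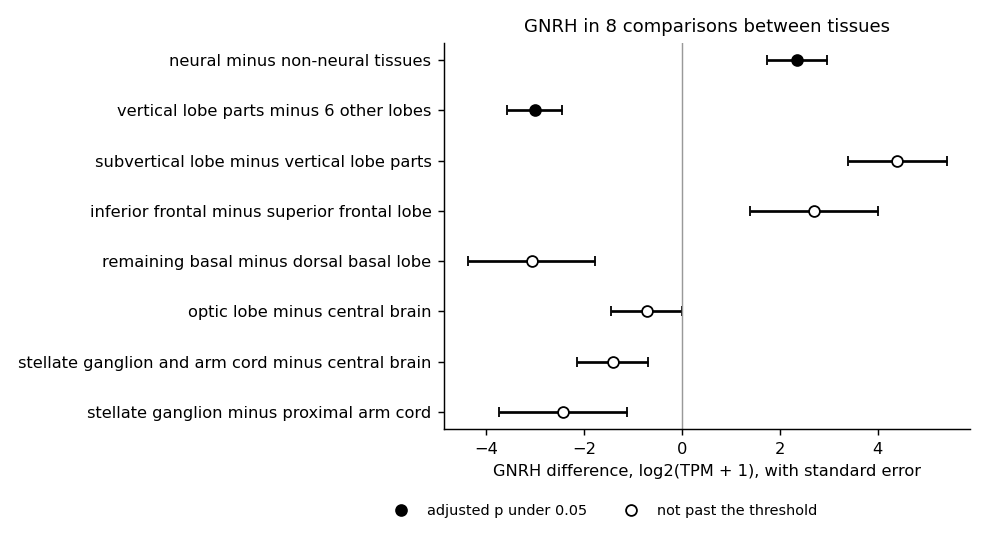
GNRH differences between tissues on the log2(TPM + 1) scale, first-named side minus second, with standard errors from limma. The first bar compares 46 tissue means and the other 7 come from 1 fit over 45 neural libraries. Filled circles mark the 2 differences with an adjusted p under 0.05, at 2.35 and -3.02.

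Whether GNRH differs among brain regions was asked in 1 limma fit over the 45 libraries of the 15 neural tissues with 3 libraries each. It did: the F statistic over the 15 tissues was 5.10 with an adjusted p of 0.00197, where 5.28% of the 13346 genes tested passed at 0.05. The subesophageal parts are not in this fit, since each has 1 library.

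On the plate, the dissected subdivisions of the vertical lobe, the centre of the octopus memory system, were lower in GNRH than the mean of the other supraesophageal lobes. The comparison does not include the pair of libraries made from the undivided vertical lobe in the second table, which had 150 and 1145 TPM. The 15 libraries of its 5 subdivisions averaged 0.770 ± 2.98 TPM, and the 18 libraries of the other 6 lobes 44.1 ± 89.2 TPM (SD), with medians of 0 and 9.46 TPM. The mean of the other lobes was 25.2 TPM without dorsal basal 1, and that of the vertical lobe 0 without left mediolateral 3. GNRH was above 0 in 1 of 15 vertical lobe libraries and in 12 of 18 libraries of the other lobes. The difference was -3.02 ± 0.56 (SE, log2 scale) with an adjusted p of 0.000401 in limma, and by the same rule 4.6% of genes tested passed in either direction and 2.46% were lower in the vertical lobe. Of the genes that passed in either direction, 46.6% were higher in the vertical lobe, and 33.5% under median ratio scaling.

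The 45 libraries carry 5 styles of label, whose meaning is not given, and style and lobe overlap. Of the 15 vertical lobe libraries, 9 have names that begin with ObRNA, 5 with ObA and 1 with a 4-digit number. Of the 18 libraries of the other lobes, 8 begin with a 4-digit number. Within the ObRNA style, GNRH averaged 1.28 TPM in the vertical lobe, above 0 in 1 of 9 libraries. It averaged 8.34 TPM in the other lobes, above 0 in 3 of 7, or 5.59 TPM without the highest. Median recovered reads in this style were 332624 for the vertical lobe and 1808530 for the other lobes. The part of depth in this contrast was not tested. Within the 4-digit style GNRH was 0 in the 1 vertical lobe library. It averaged 75.7 TPM in the other lobes, above 0 in 6 of 8, or 34.2 TPM without dorsal basal 1. That vertical lobe library, right mediolateral 1, has 84298 recovered reads, is 94.1% spike-in, resembles non-neural tissue and allows up to 69.9 TPM. Within the ObA style GNRH was 0 in 5 vertical lobe libraries and 3.06 TPM in 1 library of the other lobes. With label style as a term in the fit, the difference was -1.92 ± 0.87 (SE) with an adjusted p of 0.368 in limma, which no longer passed.

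The subvertical lobe had 3.06 to 147 TPM, and the 15 libraries of the neighbouring vertical lobe 0 to 11.5 TPM. The ranges overlapped through subvertical 3, which holds 1 GNRH read. The difference was 4.40 ± 1.01 (SE, log2 scale), the largest of the 7 within the nervous system, with an adjusted p of 0.0858 in limma, so it did not pass. By the rule, 6 genes or 0.045% passed here. The call turned on single libraries and settings: in limma the adjusted p was 0.0155 without subvertical 3, 0.0409 without left mediolateral vertical lobe 3, 0.0215 when the fit held only these tissues, 0.0386 on the deposited scale and 0.0439 with the label letter as a block. Without subvertical 2 the difference was 3.11 (adjusted p = 0.948 in limma), and without subvertical 1 the adjusted p was 0.426.

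None of the other 5 comparisons between neural regions passed for GNRH. The inferior frontal lobe, at 11.2 ± 11.8 TPM, differed from the superior frontal lobe, at 0 in 3 libraries, by 2.70 ± 1.30 (SE, log2 scale; adjusted p = 0.730 in limma), or by 1.74 without inferior frontal 2. The remaining basal lobes, at 18.4 ± 17.6 TPM, differed from the dorsal basal lobe, at 172 ± 169 TPM, by -3.08 ± 1.30 (adjusted p = 0.724 in limma), although all 3 remaining basal libraries lay below the 3 dorsal basal libraries. That difference was -1.67 without the libraries in which 3 GNRH reads are worth over 10 TPM. The rule passed 0.217% of genes in the frontal and 0.045% in the basal comparison.

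The optic lobe, with 0 to 20.97 TPM in 6 libraries, differed from the central lobes, with 0 to 366 TPM in 33 libraries, by -0.73 ± 0.73 (SE; adjusted p = 0.968 in limma; 1.2% of genes passed). Leaving out 1 optic library moved this to -1.36 without deep medulla 1, -0.25 without deep medulla 2, -0.16 without plexiform periphery 1 and -1.10 without plexiform periphery 3, and with label style as a term it was -1.88; no value passed. The stellate ganglion and proximal arm cord together, with 0 to 14.4 TPM in 6 libraries, differed from the central lobes by -1.42 ± 0.73 (SE; adjusted p = 0.350 in limma; 3.85% of genes passed), or by -0.76 without proximal arm cord 2, the cord library at 0, and by -2.20 with label style as a term. The stellate ganglion, with 0 to 0.501 TPM, differed from the proximal arm cord, with 0 to 14.4 TPM, by -2.43 ± 1.30 (SE; adjusted p = 1.00 in limma; 0.18% of genes passed), or by -3.75 without the same cord library. With 3 libraries a tissue and zeros in shallow libraries, a p that misses the threshold does not show that these regions are alike.

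**Figure D4:**
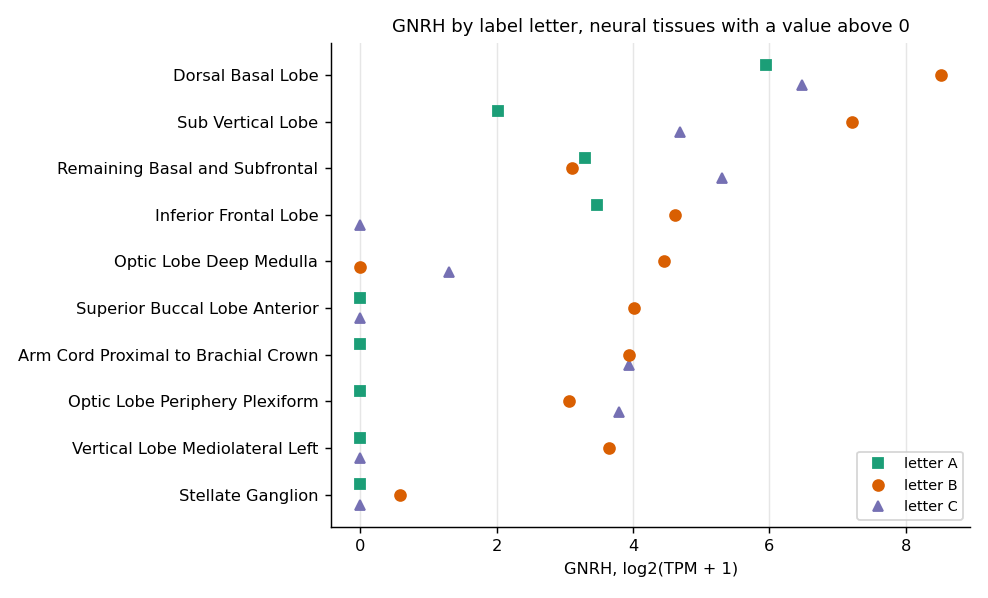
GNRH on the log2(TPM + 1) scale by the letter A, B or C in the library label, for the 10 neural tissues of the 45-library fit with any value above 0. Circles (letter B) lie farthest right in 7 of the 9 tissues that have all 3 letters.

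Part of the spread within tissues went with a letter in the labels. Each of the 45 libraries was given A, B or C from its label, and the labels do not give the meaning of the letters. For the 6 libraries whose names begin with ObA, that beginning was read as letter A. The letter results rest on this reading. In 9 tissues with all 3 letters and any GNRH, the B library was highest in 7, the C library in 2 and the A library in none. These counts include narrow and uncertain orders. In the proximal arm cord, B and C were at 14.42 and 14.38 TPM. In the stellate ganglion, superior buccal lobe and inferior frontal lobe, a library at 0 has a limit above the B value. The same holds for the C value in the plexiform periphery. Libraries with letter A averaged 5.92 TPM, those with B 38.4 TPM and those with C 12.0 TPM, or -0.80, 0.84 and -0.15 from their tissue's mean on the log2 scale. Without the highest library of each letter, which is a dorsal basal library in all 3, the averages were 1.69 TPM for A, 16.5 TPM for B and 6.59 TPM for C. A permutation test of the variance between letters, with letters shuffled within tissues 100000 times, gave p = 0.0138. In the fit over all genes the letter had F = 5.13 with an adjusted p of 0.337 in limma, which did not pass, and 0.465% of genes did. Depth moved with the letter: median recovered reads were 714428 for A, 1806920 for B and 412269 for C, and the part of depth in the letter difference was not tested.

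**Figure D5:**
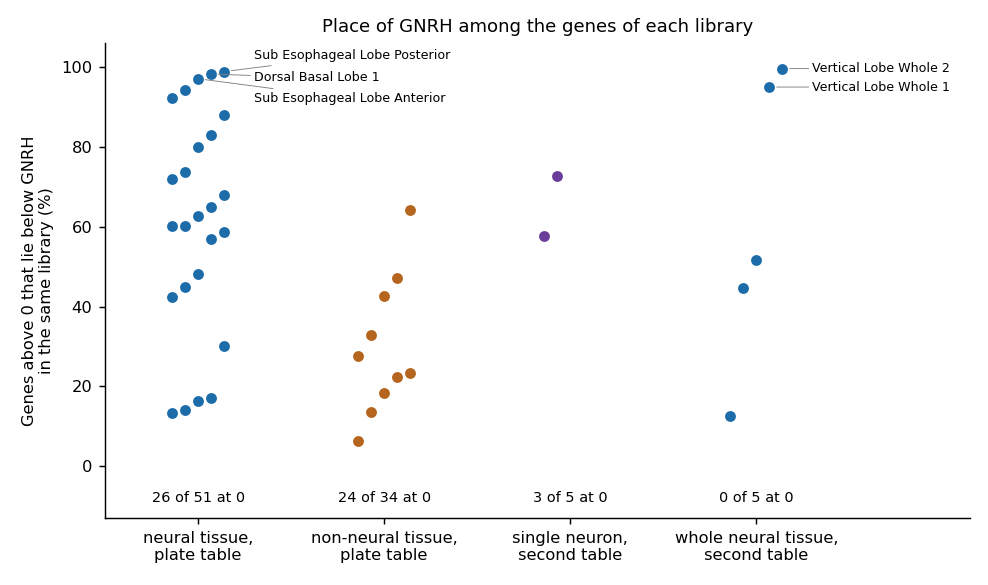
Share of the genes above 0 in a library that lie below GNRH, in percent, 1 circle per library with GNRH above 0, for neural and non-neural plate tissues, single neurons and whole neural tissues of the second table. The 2 circles for whole vertical lobe stand near the top, beside the posterior and anterior subesophageal and first dorsal basal libraries of the plate.

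The second table gave another picture of the vertical lobe. Whole vertical lobe 2 had 1145 TPM from 2770 reads, and GNRH was 64th of 13247 genes above 0. Whole vertical lobe 1 had 150 TPM from 599 reads, and GNRH was 717th of 14067 genes. On the plate, the highest library of the dissected vertical lobe subdivisions placed GNRH 4374th of 11707 genes, and the other 14 were at 0. The tables were scaled separately and share no library, so this contrast has no test, and tissue, dissection and table cannot be told apart.

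The other whole tissues of the second table were low. The brachial ganglion, whose description names the arm cord, had 4.96 TPM from 20 reads, the stellate ganglion 1.47 TPM from 10 reads and the medial superior frontal lobe 0.190 TPM from 1 read. The libraries of the stellate ganglion and the superior frontal lobe were at 1.47 TPM or less in both tables, with limits of up to 52.3 TPM on the plate.

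Single neurons gave 2 reads at most. The deep medulla neuron had 34.7 TPM and the stellate ganglion neuron 16.2 TPM, each from 2 reads. The neuron of the plexiform periphery and both vertical lobe neurons, an amacrine and a large efferent cell, had 0, which allows 79.7, 14.5 and 7.59 TPM. Neither vertical lobe neuron therefore approached the 150 and 1145 TPM of the whole lobe in the same table, and with 1 cell of each kind there was no test.

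Among 11501 genes with a top tissue mean of at least 10 TPM, the pattern most like that of GNRH over 46 tissue means belonged to LOC106869081 (Pearson r = 0.738, Spearman rho = 0.622, log2 scale). It had its highest mean, 11692 TPM, in the dorsal basal lobe, 8833 TPM in the posterior and 381 TPM in the anterior subesophageal part. LOC106868112 (r = 0.735, rho = 0.542), LOC106882999 (r = 0.734, rho = 0.599), LOC106884426 (r = 0.728, rho = 0.654) and LOC106880586 (r = 0.723, rho = 0.580) followed. The other 5 were LOC106869042, LOC106877631, LOC106869603, LOC106882770 and LOC106869086, with r of 0.719, 0.715, 0.705, 0.692 and 0.686. LOC106869603 is a long non-coding RNA in RefSeq and the other 9 are protein-coding. The median r of all genes compared was 0.071 and the 99th percentile 0.560. The tissue means share libraries, depths and zeros, so these are descriptions: without the 2 tissues highest in GNRH, LOC106869081 had r = 0.687 and LOC106869042 had r = 0.545, and 2 of the 10 remained among the first 10.

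Of the 17 other sequences that carry a name of their own in the plate table, 9 were at 0 in every plate library, and 8 could be set beside GNRH. Of these 8, 6 were higher in neural than in non-neural tissues by the same rule, which 21.4% of all genes tested passed in that direction, and none was lower: VLPep3, Sp38, Sp12, Betsin, Insulin1 and IRELamide2. Their median difference was 2.34 over all 8, against 0.29 over all genes tested. The exceptions were IRELamide1, at 0.29 ± 0.20 (SE, log2 scale), and APGW, named like the APGW-amide neuropeptides of molluscs, at 0.75 ± 0.61. In the vertical lobe against the other lobes, VLPep3 was the 1 of the 8 that passed, at -4.80 ± 1.04 (adjusted p = 0.00274 in limma). VLPep3 was lower there, as GNRH was, and 2.46% of all genes tested passed in that direction. The GNRH difference did not pass with label style as a term, and VLPep3 was not tested with that term.

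Over 46 tissue means GNRH correlated most with Betsin (r = 0.641) and VLPep3 (r = 0.623), then Sp38 (0.534), Sp12 (0.519) and Insulin1 (0.510), and least with IRELamide2 (0.281), IRELamide1 (0.176) and APGW (0.007). VLPep3 exceeded 10 TPM in 25 of 85 plate libraries and in 15 of the 18 in which GNRH did. The same counts were 34 and 11 for Sp12, 29 and 11 for Sp38, 35 and 10 for Insulin1 and 17 and 9 for Betsin. They were 9 and 1 for IRELamide2, 6 and 0 for APGW, and 0 and 0 for IRELamide1. The same overlap over all genes was not computed. In the posterior subesophageal library, the highest for GNRH, Insulin1, an insulin-type entry, also had its highest value of the plate, 8123 TPM, while VLPep3 had 93.9 TPM and Betsin 37.7 TPM. In dorsal basal 1, where GNRH was at 366 TPM, VLPep3 had 1080 TPM, Betsin 143 TPM and Insulin1 54.9 TPM. The anterior subesophageal library, also at 366 TPM for GNRH, had 1034 TPM of VLPep3 and 143 TPM of Betsin. In the second table, whole vertical lobe 2, the highest for GNRH, was also the highest for VLPep3, at 1040 TPM, and for Sp38, at 2387 TPM. The others of the 8 were highest elsewhere there: Betsin and Sp12 in the stellate ganglion neuron and IRELamide2 in the large efferent neuron. IRELamide1 was highest in the amacrine neuron, Insulin1 in the brachial ganglion and APGW in whole vertical lobe 1.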

How the data were processed

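RNA from whole tissue or from single neurons was turned into cDNA and sequenced, per the labels' protocols. The authors deposited 2 tables of TPM, in which every deposited library has the same total. Per the submitters' processing notes edgeR 3.14.0, STAR 2.3, Trimmomatic 0.32 and featureCounts were used; the role of each, and the build, is not given in the sources used here. All value columns were matched to samples by name (0 unmatched).

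Here, 92 spike-in entries were dropped, each column was rescaled to its former total, and of a gene's transcripts the one with the highest mean was kept. Whole reads were recovered from the steps of the TPM values for 15111 plate genes and 8172 genes of the second table; for GNRH they are the fewest whole reads that fit every library. They set depths, limits and exact Poisson intervals (95%, counting error only), and one alternative test.

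Tests used limma 3.58.1 in R 4.3.3 (trend option), on a log2 scale with a pseudocount of 1. Benjamini-Hochberg adjustment covered every gene that reached 1 TPM in 3 libraries (in 2 tissue means for neural against non-neural tissues). Sides of a comparison weight tissues equally, and the vertical lobe counts once among the central lobes. Scripts were tested on simulated data. The genes named are GNRH, the 10 with the highest Pearson r with it, and every entry with a name of its own. GNRH, these lists and the tests were chosen with earlier results of these data known. Alternatives covered pseudocount, filter, scaling, transcript choice, recovered reads, label style, blocks and left-out libraries. No block was used in the main fits. The median correlation of deviations between libraries sharing a title number was -0.018, which cannot exclude pairing.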

Additional observations from a re-analysis of the deposited data

Results flagged for a closer look

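GNRH was above the limit that a count of 0 allows in 4 libraries of the second table, which enter no comparison between groups: 1145 and 150 TPM in the whole vertical lobe, 4.96 TPM in the brachial ganglion and 1.47 TPM in the stellate ganglion. No tissue has the 4 libraries that a check for single outlying values needs, so none was made.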

How the results depend on the processing

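Over the 10 tests, 653 values were computed under alternatives: 647 kept their direction and side of the threshold, 1 lost its call, 5 gained one and none reversed. Many of these values came from leaving out a library that takes no part in the comparison, where the difference cannot move. Others were differences that did not pass and still did not, so the count of 647 does not measure robustness. The difference between the vertical lobe and the other lobes was -1.92 with label style as a term (adjusted p = 0.368 in limma), and its cause was not tested. The difference between the subvertical and the vertical lobe passed at 4.10 on the deposited scale (adjusted p = 0.0386, where the median of all genes was 0.66 against 0.28 as reported), at 4.40 when fitted on these tissues alone (0.0215), and, of the replicate blocks, at 4.40 with the label letter as a block (0.0439) but not at 4.40 with the title number (0.0936). Leaving out 1 library at a time gave 3.11 to 5.71, with adjusted p from 0.0155 to 0.948 in limma. The same range was 2.01 to 2.51 for neural against non-neural tissues, -3.26 to -2.79 for the vertical lobe and 4.00 to 5.87 for the F statistic over regions, with no call changed. It was 1.74 to 4.04 for the frontal, -3.78 to -2.31 for the basal, -1.36 to -0.16 for the optic, -1.75 to -0.76 for the peripheral and -3.75 to -1.78 for the stellate ganglion comparison, none of which passed. The blocks changed no other call. Deviations from tissue means were correlated between libraries of different tissues. The median was -0.018 for the same title number (-0.651 to 0.718, 315 pairs) and 0.025 for the same letter. For different title numbers it was 0.0017, and for different letters -0.020. Deviations within a tissue cancel out, so these medians cannot show whether either label pairs the libraries.

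Counts of genes passing over all alternatives other than single left-out libraries ran from 1563 to 4651 for neural against non-neural tissues (3702 as reported), 259 to 1198 for any regional difference (705), 202 to 861 for the vertical lobe (614), 3 to 25 for the subvertical lobe (6), 2 to 43 for the frontal (29), 0 to 8 for the basal (6), 35 to 190 for the optic (160), 36 to 1329 for the peripheral (514), 12 to 370 for the stellate ganglion comparison (24) and 23 to 121 for the letter (62). Fits on the compared tissues alone gave no value for the frontal and stellate comparisons, where GNRH did not reach 1 TPM in 3 libraries. On the deposited scale the posterior and anterior subesophageal levels were 648 and 287 TPM and that of the arm cord near the tip 18.4 TPM. Of the 10 most similar genes, 8 remained among the first 10 on the deposited scale, 7 without the 5 libraries that resemble the other class, and 0 by rho or over the 45 neural libraries.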
